A study of Mus musculus with 20 samples.

Results

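Nuclear receptors are transcription factors, most of which are switched by small fat-soluble ligands such as steroids, thyroid hormone, retinoids, oxysterols, bile acids and fatty acids. They were examined here as 35 genes taken by symbol from the 48440 genes of the liver count table, leaving out the REV-ERB receptors of the circadian clock and some others of the superfamily. All 35 were found, and 32 of them had enough counts to be tested, as did 16071 genes in all. The other 3, Vdr (vitamin D receptor), Hnf4g (HNF4γ) and Nr4a3 (an immediate early receptor), were counted in only 2, 7 and 5 of the 20 livers, with at most 8, 23 and 17 counts in any liver, and got no test. The values are RNA-seq counts from whole liver of female wild-type C57BL/6 mice (C57BL/6J in the study's methods), given as 8 weeks old for an experiment of 5 weeks, with 5 mice in each of 4 groups. The IgG_Veh group received an isotype control antibody and vehicle, and the IgG_CORT group the isotype antibody and corticosterone (CORT), the main adrenal glucocorticoid of rodents, in the drinking water for the 5 weeks. The DBI_Veh and DBI_CORT groups received a monoclonal antibody that neutralizes acyl-CoA-binding protein (ACBP), the product of the Dbi gene, with vehicle or with CORT. The design asks which receptors answer to CORT, which to the antibody, and whether the answer to CORT differs when the antibody is present.

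Many receptors of this set bind DNA as heterodimers with a retinoid X receptor (RXR), so that RXR is shared by the fatty acid receptors (PPARs), oxysterol receptors (LXRs), the bile acid receptor FXR, the xenobiotic receptors CAR and PXR, and the thyroid hormone, retinoic acid and vitamin D receptors. Without ligand many of them hold corepressors on their target genes, and with ligand these are exchanged for coactivators. In hepatocytes HNF4α maintains hepatocyte identity, PPARα drives fatty acid oxidation during fasting, LXRs drive lipogenesis and cholesterol efflux, FXR limits bile acid synthesis, and CAR and PXR induce drug-metabolizing enzymes.

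Upstream sequence is shown for the 4 receptors with the smallest adjusted p-values below, to place each change beside the start of its gene. Each line gives the 250 bases before the first RefSeq start of the gene (build GRCm38.p6), 5′ to 3′ on the gene's own strand, with capitals on the motifs found. They lie at chr17:28232504-28232753 on the plus strand for Ppard, at chr1:171213720-171213969 on the plus strand for Nr1i3, at chr19:6921809-6922058 on the minus strand for Esrra and at chr7:44553966-44554215 on the minus strand for Nr1h2.
Ppard: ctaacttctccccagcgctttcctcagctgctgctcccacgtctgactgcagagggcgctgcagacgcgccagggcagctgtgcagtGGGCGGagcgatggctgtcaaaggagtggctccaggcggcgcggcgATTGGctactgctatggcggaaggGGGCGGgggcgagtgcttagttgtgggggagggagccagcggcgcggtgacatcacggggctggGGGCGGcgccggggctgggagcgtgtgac
Nr1i3: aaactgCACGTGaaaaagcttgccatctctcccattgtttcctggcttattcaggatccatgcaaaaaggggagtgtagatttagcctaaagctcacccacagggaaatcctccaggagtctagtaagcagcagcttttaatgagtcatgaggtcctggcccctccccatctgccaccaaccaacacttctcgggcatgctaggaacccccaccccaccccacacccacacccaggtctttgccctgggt
Esrra: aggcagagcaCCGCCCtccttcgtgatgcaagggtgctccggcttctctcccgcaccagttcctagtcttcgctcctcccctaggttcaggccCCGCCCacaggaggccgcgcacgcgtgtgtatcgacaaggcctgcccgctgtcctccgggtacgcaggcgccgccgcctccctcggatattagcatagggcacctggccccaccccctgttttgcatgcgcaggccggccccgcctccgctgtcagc
Nr1h2: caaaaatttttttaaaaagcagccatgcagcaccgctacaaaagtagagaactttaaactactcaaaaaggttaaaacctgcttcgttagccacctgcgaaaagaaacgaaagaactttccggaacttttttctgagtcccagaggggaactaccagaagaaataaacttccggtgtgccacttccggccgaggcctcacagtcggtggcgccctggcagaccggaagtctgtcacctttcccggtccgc
The Ppard and Esrra sequences were rich in G and C (69.6% and 68.4%, with 22 CG pairs each), against 53.2% and 2 CG pairs for Nr1i3 and 48.4% and 13 CG pairs for Nr1h2. Both strands were searched, so that CCGCCC marks the GC box on the other strand, and ATTGG likewise marks the CCAAT box. The GC box GGGCGG was found 3 times before Ppard and 2 times before Esrra. It is present in 32.7% of all 32851 RefSeq promoters, searched over the same 250 bases before the start. The CCAAT box CCAAT was found before Ppard (33.8% of all promoters). The E-box CACGTG was found before Nr1i3 (6.02% of all promoters). The other motifs searched were the D-box TTATGTAA or TTACGTAA (0.931% of all promoters), the glucocorticoid receptor half-site AGAACA (16.1%), the nuclear receptor half-site AGGTCA (14%), the ERR site TCAAGGTCA (0.387%, overlapping AGGTCA) and the TATA box TATAAA (12.4%), and none of these was in the 4 sequences. A promoter was listed for 33 of the 35 receptors. A missing match says only that these letters are not in this window.

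The counts on genes summed to between 14934926 and 20299999 per liver, so that 3 counts in the smallest library correspond to 0.201 CPM, the count scaled to a common library size by TMM. Where genes are compared with each other, CPM is divided by the length of their exons in kb. The summed level of 5 hepatocyte markers (Alb, Ttr, Apoa1, Tat, Cps1) lay between 36600 and 133600 CPM, and adipocyte markers were at 0 in all livers of the IgG_CORT and DBI_Veh groups. DBI_Veh replicate 5 stood apart, with the lowest hepatocyte marker sum (36600 CPM), 14.1% of its counts on its 20 most abundant genes against 20.03% to 27.7% in the other livers, and the lowest correlation with its own group (median r = 0.873), and receptor values that passed the adjusted p in comparisons with the DBI_Veh group are therefore also given without it. Kupffer cell markers (Clec4f, Vsig4, Timd4, Cd5l, Adgre1) summed to a median of 142 CPM in the IgG_CORT group against 404, 444 and 447 CPM in the IgG_Veh, DBI_Veh and DBI_CORT groups. Taken singly, 4 of these 5 markers had lower values in DBI_Veh than in IgG_Veh. The labels call the livers biological replicates, and p-values measure the spread between these livers.

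Nr1i3, which encodes CAR, had the highest level of the receptors in IgG_Veh livers, at 147 ± 28.7 CPM per kb (SD, n = 5), a level that cannot be told apart from that of the overlapping gene Tomm40l described further on. It was followed by Hnf4a at 79.03 ± 4.79 CPM per kb. Then came Nr1i2, which encodes PXR, at 53.5 ± 10.9 CPM per kb, Nr1h4 (FXR) at 35.97 ± 6.97 CPM per kb and Rxra at 29.7 ± 4.99 CPM per kb. A group of Nr2f6, Nr1h3 (LXRα) and Nr1h2 (LXRβ) followed, between 23.2 and 26.2 CPM per kb. The level of Nr2f6 cannot be told apart from that of Ocel1, whose exons overlap it on the opposite strand. Nr2f6 had more counts than Ocel1 in only 1 of the 5 livers. Ppard, at 5.91 ± 2.85 CPM per kb, had a higher mean than Ppara at 2.77 ± 0.850, with overlapping livers, and Pparg at 0.871 ± 0.297 CPM per kb. At the low end Esrrg, Nr2f1, Esrrb and Nr4a2 had means of 0.360, 0.340, 0.191 and 0.132 CPM per kb. Only 3 neighbours in this order did not overlap between the IgG_Veh livers: Nr1i3 above Hnf4a, Hnf4a above Nr1i2, and Nr3c2 above Esrrg. All other neighbours had at least 1 liver inside the range of the next gene, and their order is not resolved by these livers.

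**Figure D1:**
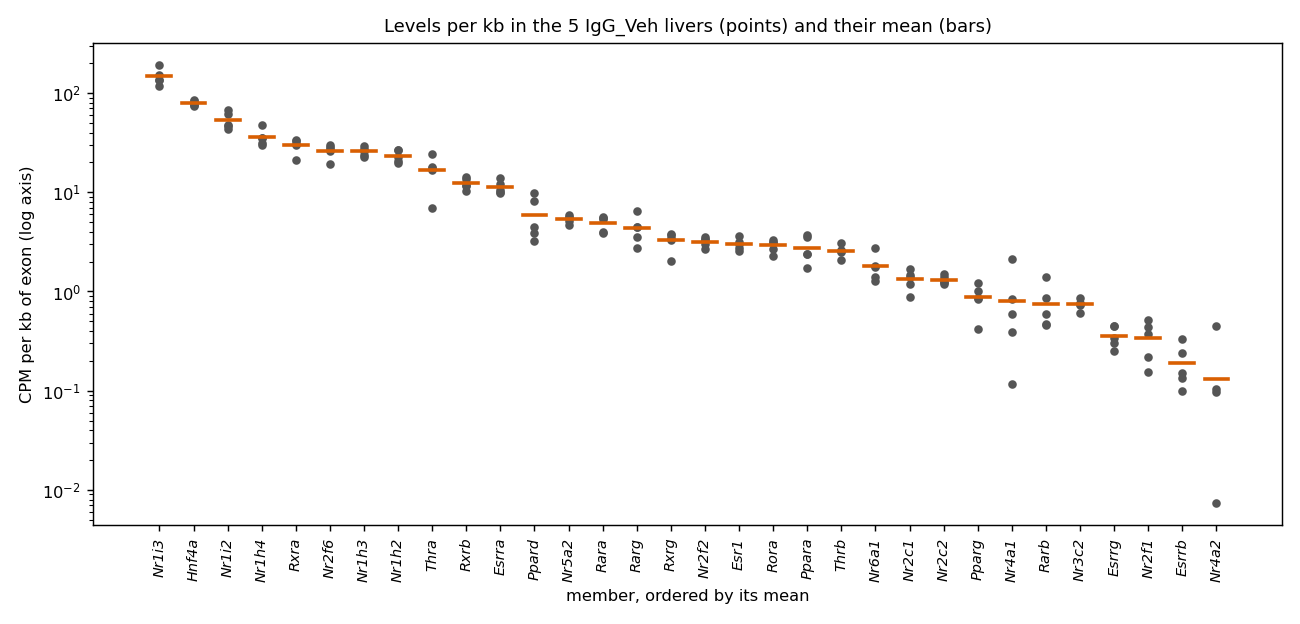
Level of the 32 tested receptors in the 5 IgG_Veh livers, as CPM per kb of exon on a log axis, with 1 point per liver and a bar at the mean; a liver at 0 is not drawn. Nr1i3, with a mean of 147 CPM per kb, stands above Hnf4a with 79.0, and the genes from Nr1i2 to Nr3c2 form a descending series of overlapping ranges.

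Receptors counted as called when edgeR's quasi-likelihood test, run in 1 model of the 4 groups with Benjamini-Hochberg adjustment over 16071 genes, gave an adjusted p no higher than 0.05 and the log2 fold change reached 1 in either direction. Between IgG_CORT and IgG_Veh 1 of the 32 tested receptors was called, against 1.94% of all genes tested, and 2 passed the adjusted p alone, against 3.2%. Between DBI_CORT and IgG_CORT 1 was called (0.597% of all genes) and 2 passed the adjusted p alone (0.958%). Between DBI_CORT and DBI_Veh 1 was called (0.212%), and it was the only one to pass the adjusted p (0.305%). Between DBI_Veh and IgG_Veh 1 was called (1.3%) and 5 passed the adjusted p alone (5.14%). None was called or passed the adjusted p between DBI_CORT and IgG_Veh, where 0.0684% of all genes were called and 0.0809% passed the adjusted p, and where 7 receptors had an unadjusted p of 0.05 or less and DESeq2's Wald test called 1, Nr2c1. For the interaction, the difference between the response to CORT with and without the antibody, 1 receptor was called (0.143%). In each of the 5 comparisons with a call the called receptor was Ppard. Read against these shares of all genes, a count of 1 among 32 says nothing particular about the receptors as a set.

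Across the 6 comparisons, 47 of 192 pairs of a receptor and a comparison had an unadjusted p no higher than 0.05, and for 11 the adjusted p was within this limit, from 5 receptors: Ppard, Nr1i3, Nr1h2, Esrra and Rara. The comparisons share livers, so that their values are not independent of each other. The unadjusted p was at or under 0.05 for 11 receptors with CORT under isotype (15.6% of all genes), 8 with the antibody under CORT (12.5%), 5 with CORT under the antibody (12.7%), 12 with the antibody under vehicle (20.6%), 7 between DBI_CORT and IgG_Veh (7.59%) and 4 for the interaction (10.6%). The median log2 fold change of the tested receptors was 0.09, -0.08, -0.07, 0.01, 0.12 and -0.15 in the same order, against 0.00, 0.01, 0.01, -0.02, 0.00 and 0.03 over all genes. The 2 groups compared did not overlap for 3, 2, 1, 6 and 2 receptors in the first 5 of these comparisons, against 5.04%, 3.22%, 2.74%, 7.13% and 3.31% of all genes.

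**Figure D2:**
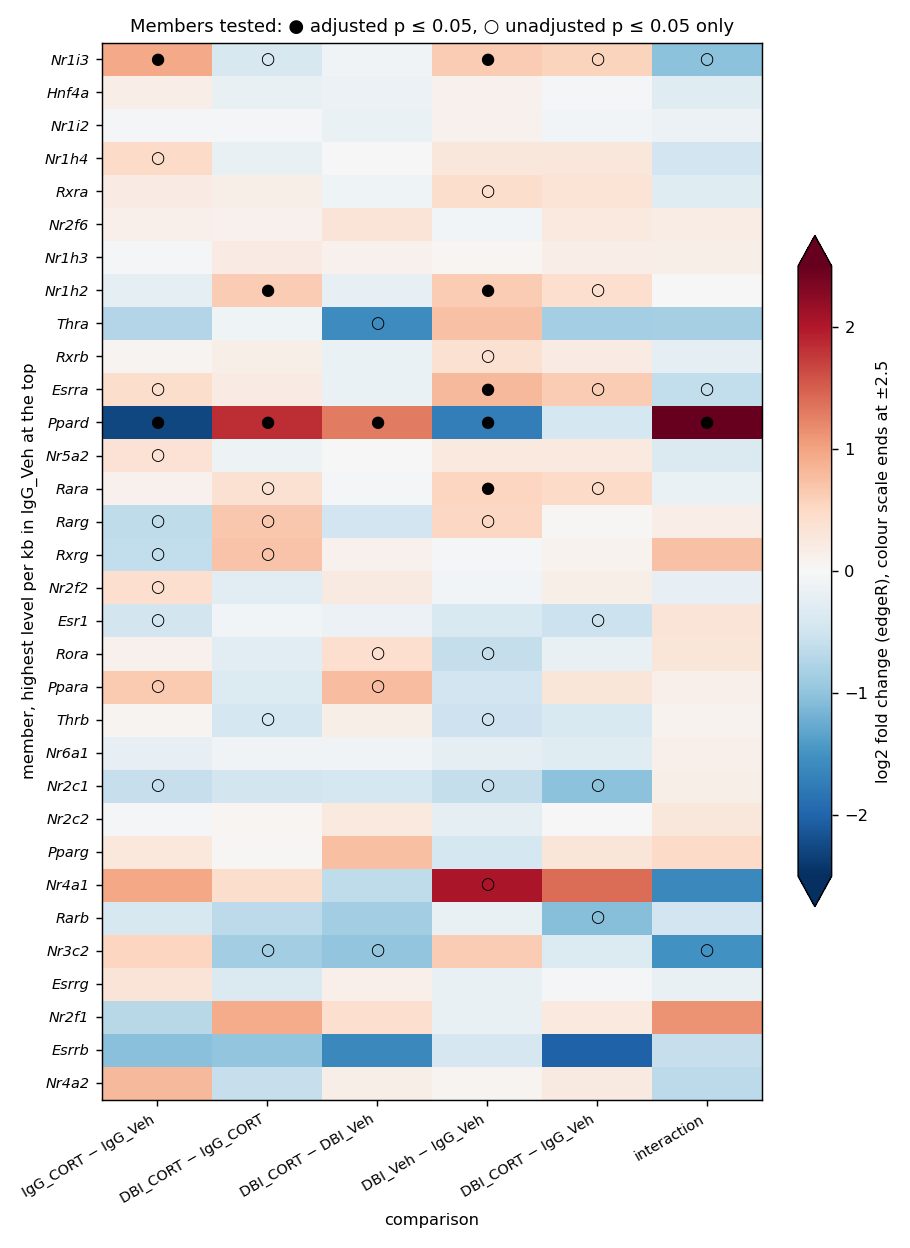
Log2 fold change of the 32 tested receptors (rows, highest level per kb at the top) in the 6 comparisons (columns), from blue (lower in the first-named group) to red (higher), with filled circles where the adjusted p was no higher than 0.05 and open circles where only the unadjusted p was. Ppard carries 5 of the 11 filled circles and changes sign from -2.28 with CORT under isotype to 1.29 with CORT under the antibody.

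Ppard encodes PPARδ, the fatty acid receptor that is present in most tissues and drives fatty acid use in muscle and macrophages. It was lower with CORT alone and with the antibody alone than in the controls, and higher with both together than with either alone. In the 5 IgG_Veh livers Ppard stood at 61.01, 33.8, 24.4, 73.2 and 29.6 CPM. In the IgG_CORT livers it stood at 12.04, 6.31, 10.04, 11.5 and 5.87 CPM, and in the DBI_Veh livers at 13.4, 14.8, 10.3, 11.8 and 16.3 CPM. In the DBI_CORT livers it stood at 24.9, 26.97, 48.4, 42.2 and 21.1 CPM. Every IgG_CORT and DBI_Veh liver thus lay below every IgG_Veh and DBI_CORT liver, and 2 of the IgG_Veh livers, replicates 1 and 4, lay above all others. The means were 44.4 ± 21.5, 9.15 ± 2.89, 13.3 ± 2.35 and 32.7 ± 11.9 CPM (SD, n = 5 each) in the order IgG_Veh, IgG_CORT, DBI_Veh and DBI_CORT. In bulk liver RNA, fewer cells of a type and less RNA per cell cannot be told apart.

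With CORT under isotype Ppard fell, with a log2 fold change of -2.28 (SE 0.30, edgeR adjusted p = 0.000231), to 0.206 of the control level. With the antibody under vehicle it fell too, with a log2 fold change of -1.73 (SE 0.29, edgeR adjusted p = 0.00238), and without DBI_Veh replicate 5 the value was -1.82 (adjusted p = 0.00681). Under CORT the level was higher with the antibody than with isotype, by a log2 fold change of 1.84 (SE 0.29, edgeR adjusted p = 0.00275). Under the antibody the level was higher with CORT than with vehicle, by 1.29 on the log2 scale (SE 0.29, edgeR adjusted p = 0.0443). This last call rested on 9 of its 10 livers: it was lost when any 1 of them except DBI_CORT replicate 5 was left out, with log2 fold changes between 1.11 and 1.42 and adjusted p up to 0.131, and without DBI_Veh replicate 5 at 1.38 with an adjusted p of 0.0945. It was also lost with DESeq2's size factors (adjusted p = 0.0538) and with the replicate number as a block (adjusted p = 0.0587). Between DBI_CORT and IgG_Veh the log2 fold change was -0.44 (SE 0.28, unadjusted p = 0.129, edgeR adjusted p = 0.839). The interaction had a log2 value of 3.57 (SE 0.41, edgeR adjusted p = 4.58e-05), the smallest p of all 16071 genes, and it stayed between 3.32 and 3.73 with each of the 20 livers left out in turn (3.68 with an adjusted p of 0.000147 without DBI_Veh replicate 5).

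Ppard (ENSMUSG00000002250.15) lies on chromosome 17, plus strand (GRCm39, 28451674 to 28520448). Exons on the opposite strand cover 6.04% of its exon bases, and these genes were not analysed here. Ppard was low in IgG_CORT and DBI_Veh livers. The summed Kupffer cell markers lay between 89.6 and 284 CPM in IgG_CORT livers and between 340.6 and 619 CPM in DBI_Veh livers. In IgG_Veh livers these markers lay between 252 and 418 CPM. Taken singly, 4 of the 5 had lower values and 1 a higher value with the antibody under vehicle. Their median log2 fold change there was -0.48 against -0.02 over all genes, so that the sum does not follow most of these markers. Of the 5 markers 4 were called lower with CORT under isotype, 1 was called higher with the antibody under CORT, and none was called with the antibody under vehicle (edgeR, with an unadjusted p at or under 0.05 for 2, and none by DESeq2). Clock genes with lower group means in IgG_CORT and DBI_Veh were also found. Arntl, which encodes the clock activator BMAL1, stood at 33.3 ± 4.803, 16.3 ± 7.80, 7.69 ± 4.83 and 24.3 ± 9.35 CPM (SD, n = 5) in IgG_Veh, IgG_CORT, DBI_Veh and DBI_CORT, and Npas2, which encodes a partner of BMAL1, at 13.96 ± 4.73, 4.97 ± 3.56, 3.17 ± 2.05 and 13.8 ± 6.12 CPM. Arntl fell with the antibody under vehicle by 2.11 on the log2 scale (edgeR adjusted p = 0.0108; -2.40 with 0.0143 without DBI_Veh replicate 5), while its value with CORT under isotype was -1.03 (adjusted p = 0.210). Among 15 clock genes 1 was called with CORT under isotype (Hlf, higher), 1 with CORT under the antibody (Nfil3, higher), 5 with the antibody under vehicle (Dbp, Tef and Ciart higher, Arntl and Nfil3 lower) and 1 for the interaction (Nfil3, higher). DESeq2 called 9 of them with CORT under the antibody, 8 with the antibody under vehicle and 9 for the interaction, and without DBI_Veh replicate 5 Dbp was not called with the antibody under vehicle (adjusted p = 0.0620). The time of day at which each liver was taken is not given in the sources used here. The parts of Kupffer cells and of the clock in the Ppard values were not tested.

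**Figure D3:**
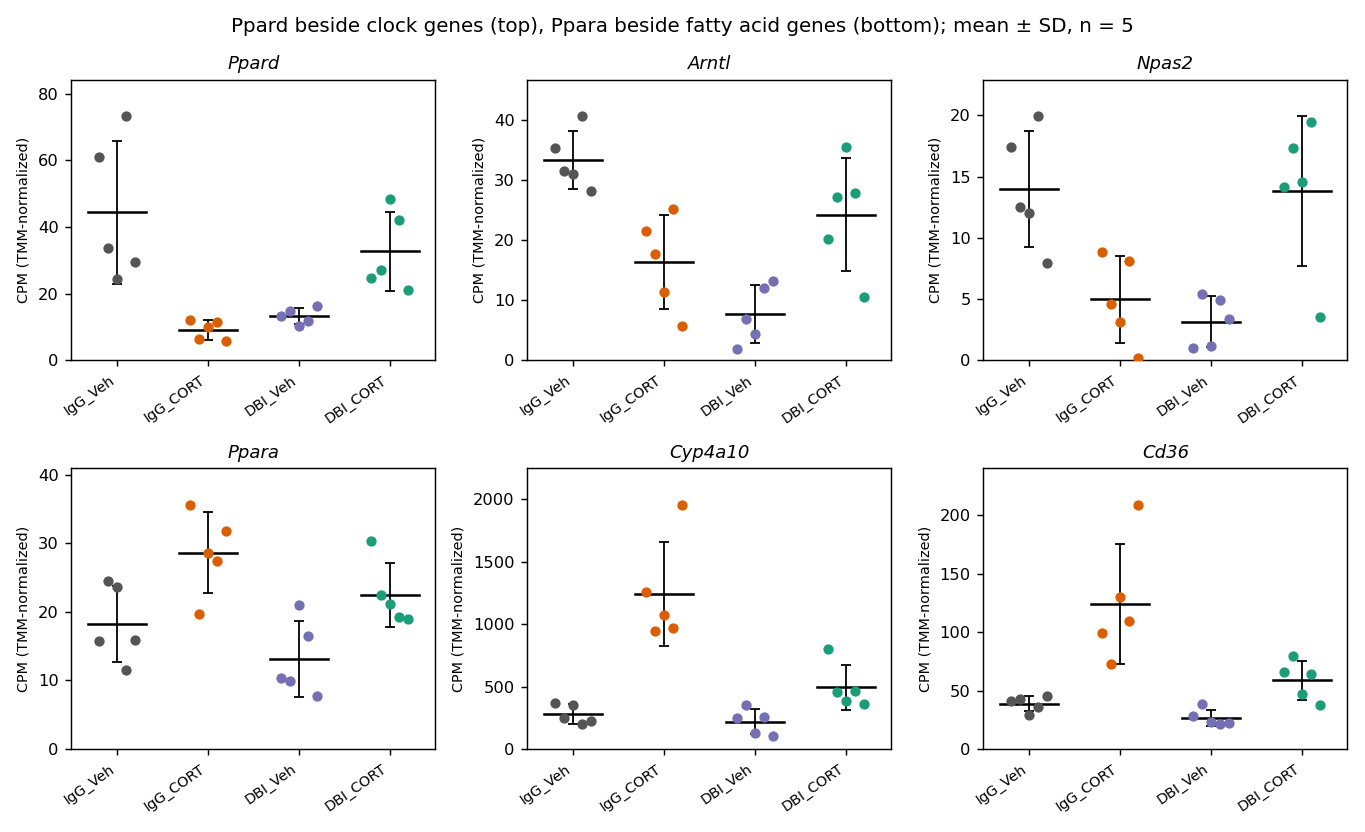
CPM of Ppard, Arntl and Npas2 (top row) and of Ppara, Cyp4a10 and Cd36 (bottom row) in each liver of the 4 groups, with 1 point per liver and a black line and bar for the mean ± SD of 5 livers. The group means of Ppard, Arntl and Npas2 are all lower in IgG_CORT and DBI_Veh than in IgG_Veh and DBI_CORT, while those of Ppara, Cyp4a10 and Cd36 are highest in IgG_CORT.

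Ppara, which encodes the main fatty acid receptor of hepatocytes, had higher values with CORT under either antibody, but neither difference passed the adjustment. Its means were 18.2 ± 5.60, 28.6 ± 5.91, 13.1 ± 5.48 and 22.4 ± 4.67 CPM (SD, n = 5) in the order used above. The log2 fold change with CORT was 0.65 under isotype (SE 0.25, unadjusted p = 0.0147, edgeR adjusted p = 0.168) and 0.77 under the antibody (SE 0.25, unadjusted p = 0.00453, edgeR adjusted p = 0.165). Without DBI_Veh replicate 5 the second value was 0.63 with an adjusted p of 0.407. The groups overlapped in both comparisons, and Cdpf1 on the opposite strand, which covers 27.4% of the exon bases of Ppara, stayed between 8.21 and 9.63 CPM in the 4 group means. Pparg, the receptor of adipocyte differentiation, stood at group means of 4.46 to 7.47 CPM, with log2 fold changes between -0.45 and 0.75 and no unadjusted p at or under 0.05.

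Of 20 genes known as PPARα targets, 19 had higher values with CORT under isotype and 5 of these were called (Cyp4a10, Cyp4a14, Vnn1, Fgf21 and Cd36), 10 passing the adjusted p alone. Their median log2 fold change was 0.74, against 0.00 over all genes. Cyp4a10, a fatty acid ω-hydroxylase, rose from 282 ± 77.2 to 1241 ± 417 CPM (log2 fold change 2.14, edgeR adjusted p = 0.000294). Cd36, a fatty acid uptake receptor, rose from 38.8 ± 6.44 to 124 ± 51.7 CPM (1.68 on the log2 scale, adjusted p = 0.000291). Vnn1, a pantetheinase, rose from 23.6 ± 3.03 to 99.5 ± 63.2 CPM (2.08 on the log2 scale, adjusted p = 0.00392). In IgG_CORT replicate 5 Acot1, Cyp4a14 and Cyp4a10 stood at 338, 3939 and 1954 CPM. The rest of its group stood at no more than 63.6, 1800 and 1254 CPM. Vnn1 and Fgf21 were highest in replicates 3 and 1 of this group, at 177 and 61.8 CPM. The 20 targets were not refitted without IgG_CORT replicate 5. Under CORT, 19 of the 20 had lower values with the antibody than with isotype, with a median of -0.52 against 0.01 over all genes, and Cyp4a10 (-1.33 on the log2 scale, edgeR adjusted p = 0.0230) and Cd36 (-1.08, adjusted p = 0.0173) were called. Under the antibody CORT raised Cd36 alone among them past both limits (1.14 on the log2 scale, adjusted p = 0.0291), with 19 of 20 values higher and a median of 0.68. Without DBI_Veh replicate 5 that value was 1.07 with an adjusted p of 0.0984, so that none of the 20 was called. DESeq2 called 5 of the 20 in that comparison. Ehhadh, a peroxisomal oxidation enzyme, was called lower with the antibody under vehicle (-1.04 on the log2 scale, edgeR adjusted p = 0.0114; -0.98 with 0.0351 without DBI_Veh replicate 5). Ppara itself had a log2 value of -0.35 with the antibody under CORT (unadjusted p = 0.170).

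**Figure D4:**
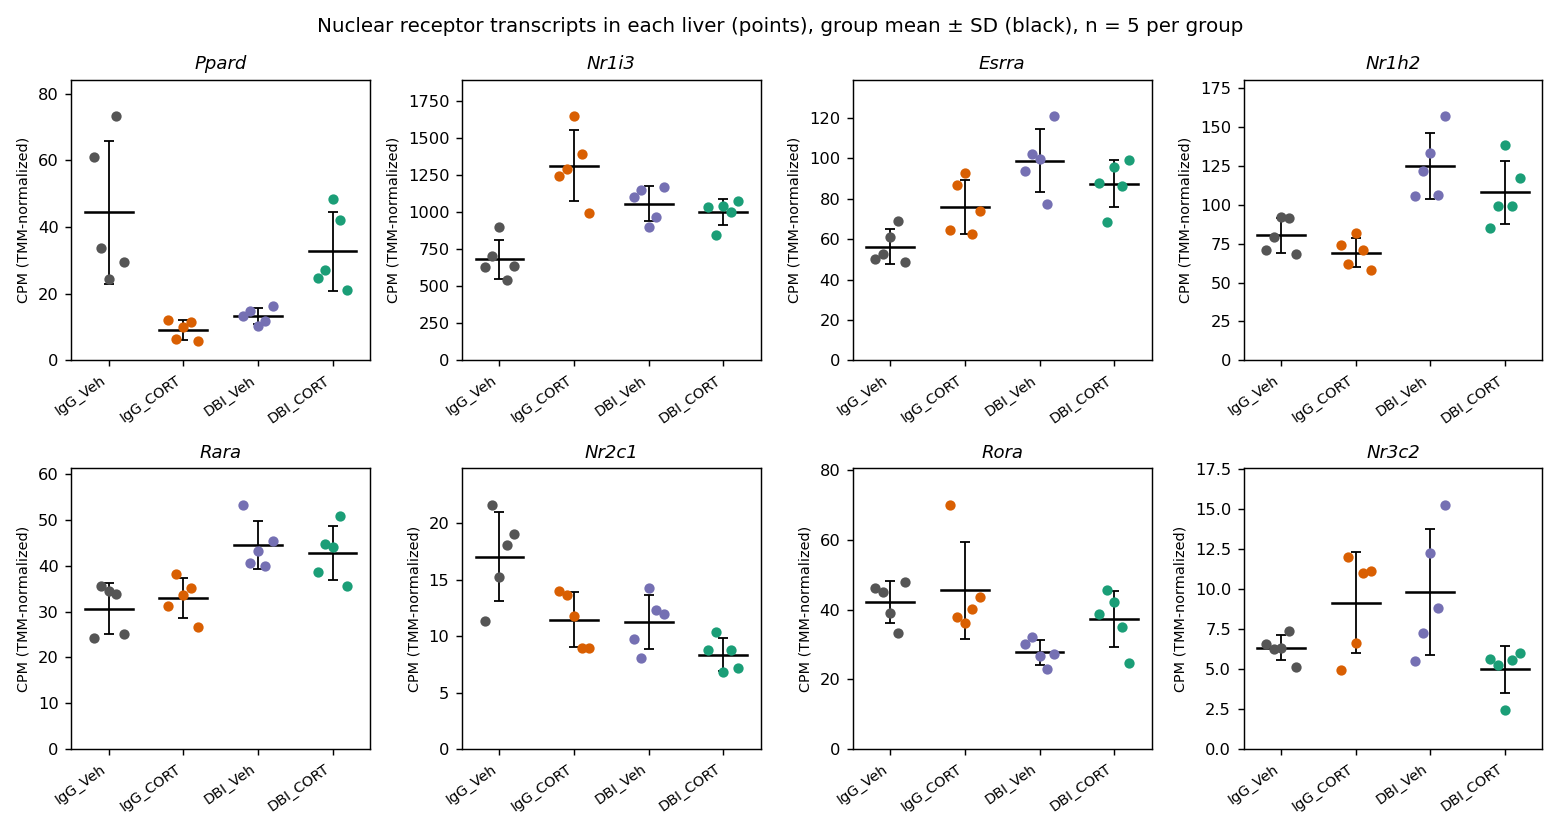
CPM of 8 receptors in each liver of the 4 groups, with 1 point per liver and a black line and bar for the mean ± SD of 5 livers; each panel has its own axis from 0. Ppard falls below 17 CPM in all IgG_CORT and DBI_Veh livers, and all IgG_CORT livers of Nr1i3 lie above all IgG_Veh livers.

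Nr1i3 encodes CAR, the constitutively active receptor that induces Cyp2b enzymes in answer to drugs and that moves to the nucleus on activation. It had values of 631, 703, 899.5, 546 and 634 CPM in the IgG_Veh livers and 1245, 1294, 1648, 1395 and 995 CPM in the IgG_CORT livers. In the DBI_Veh livers it stood at 1100, 1150, 902, 965 and 1172 CPM and in the DBI_CORT livers at 1035, 849.6, 1042, 999 and 1079 CPM. All livers of the IgG_CORT and DBI_Veh groups lay above those of the IgG_Veh group, with replicate 3 the highest control liver, and 1 DBI_CORT liver lay inside the control range. With CORT under isotype the log2 fold change was 0.95 (SE 0.17, edgeR adjusted p = 0.00155), a rise that passed the adjusted p and stayed just under the fold limit. With the antibody under vehicle Nr1i3 rose by 0.63 on the log2 scale (SE 0.17, edgeR adjusted p = 0.0274), which was lost without any 1 of IgG_Veh replicates 1, 2 and 5 and DBI_Veh replicates 1, 2 and 5 (0.56 to 0.75 over the 10 livers left out, adjusted p up to 0.0888; 0.59 with 0.0614 without DBI_Veh replicate 5). Unadjusted p-values at or under 0.05 were also found for DBI_CORT against IgG_CORT (-0.39, edgeR adjusted p = 0.308) and for DBI_CORT against IgG_Veh (0.55, adjusted p = 0.230). The same held for the interaction (-1.03, edgeR adjusted p = 0.0525), which was -0.97 with 0.0803 without DBI_Veh replicate 5. By DESeq2's Wald test the value between DBI_CORT and IgG_Veh passed (adjusted p = 0.0299). The interaction passed in 3 of 5 alternative fits.

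The Nr1i3 values cannot be told apart from those of a neighbour. Nr1i3 (ENSMUSG00000005677.14, plus strand of chromosome 1 of GRCm39, 171041506 to 171048270) shares 75.4% of its exon bases with Tomm40l on the opposite strand, which encodes a mitochondrial import protein, and pairs in shared exons are counted on both genes where strand is not used. The counts of both genes had a ratio between 0.930 and 1.07 in the 20 livers and lay within 7% of each other in 19 of them. Tomm40l went from 663 ± 136 to 1296 ± 205 CPM (log2 fold change 0.97, edgeR adjusted p = 0.00121). Nr1i2, which encodes PXR and has no exon on the opposite strand, stood at group means of 138 to 155 CPM with log2 fold changes between -0.17 and 0.10 and no unadjusted p at or under 0.05.

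**Figure D5:**
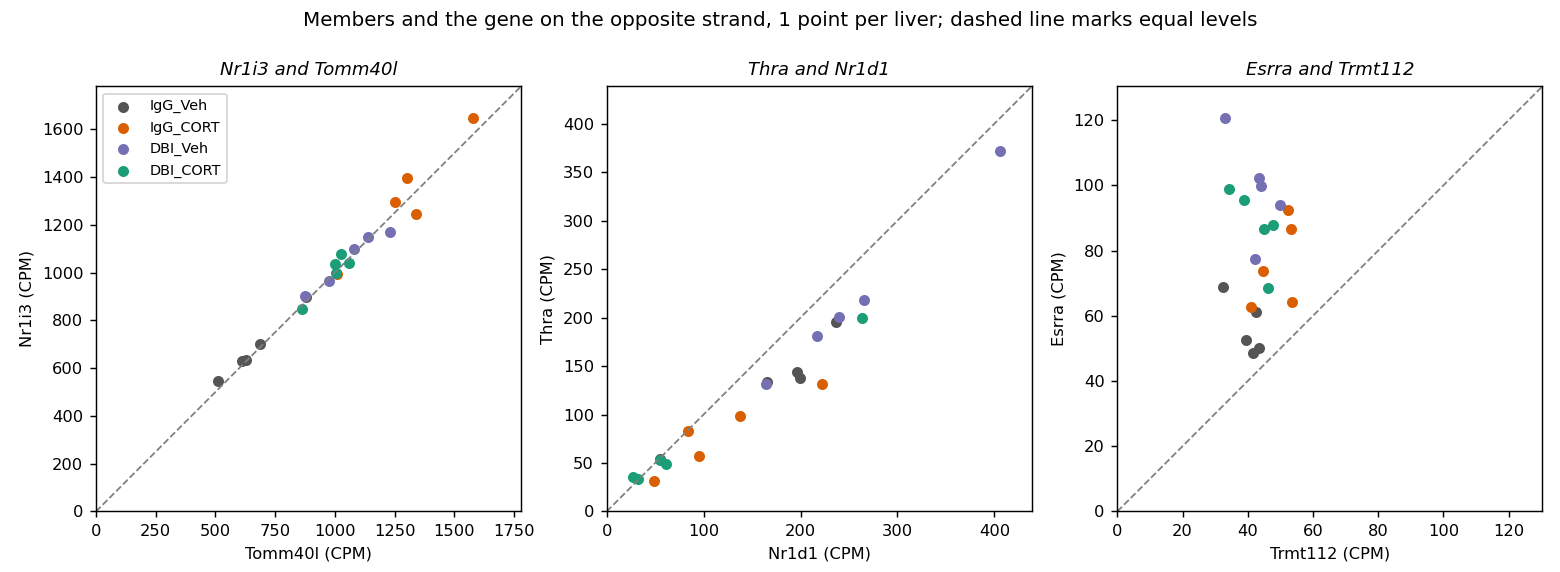
CPM of Nr1i3, Thra and Esrra (vertical axes) against the gene whose exons overlap them on the opposite strand, Tomm40l, Nr1d1 and Trmt112 (horizontal axes), with 1 point per liver coloured by group and a dashed line at equal levels. Nr1i3 and Tomm40l lie along the line in all 20 livers, Thra lies at or below it in 18 livers, and Esrra lies above it in every liver.

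Of 14 known CAR and PXR targets 10 had higher values with CORT under isotype, and 1 was called: Cyp2b10, the classic CAR target, went from 13.2 ± 5.41 to 55.6 ± 52.8 CPM (log2 fold change 2.07, edgeR adjusted p = 0.0467). Cyp2b9 (0.58 on the log2 scale, adjusted p = 0.0510) and Por, the P450 reductase (0.82, adjusted p = 0.0864), had higher values that missed the threshold. Por rose with the antibody under vehicle (1.02 on the log2 scale, edgeR adjusted p = 0.0264; 1.07 with 0.0487 without DBI_Veh replicate 5), the only one of the 14 called by edgeR, while the value of Cyp2b10 was -1.67 (adjusted p = 0.0887). DESeq2 called 3 of the 14 in that comparison, Por and Alas1, which catalyses the first step of heme synthesis, as higher and Cyp2b10 as lower. Nr1i3 had higher values in both comparisons, while Cyp2b10 had a higher value in the first and a lower one in the second.

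Nr1h2, which encodes the ubiquitous LXRβ, was higher with the antibody, with or without CORT. It stood at 70.9, 79.2, 92.3, 91.5 and 68.4 CPM in the IgG_Veh livers and at 106, 122, 133, 106 and 157 CPM in the DBI_Veh livers. In the IgG_CORT livers it stood at 74.1, 61.7, 81.6, 70.7 and 58.3 CPM and in the DBI_CORT livers at 85.3, 99.1, 139, 99.3 and 117 CPM. Neither pair of groups overlapped. The antibody raised Nr1h2 by 0.63 on the log2 scale under vehicle (SE 0.16, edgeR adjusted p = 0.0244) and by 0.64 under CORT (SE 0.16, edgeR adjusted p = 0.0493). Under vehicle the pass was lost without IgG_Veh replicate 1, 2 or 5 or DBI_Veh replicate 5 (0.53 to 0.69 over the livers left out, adjusted p up to 0.0860; 0.53 with 0.0734 without DBI_Veh replicate 5). Under CORT it was lost without any 1 of 8 of the 10 livers, all but IgG_CORT replicate 3 and DBI_CORT replicate 1 (0.53 to 0.71, adjusted p up to 0.188). It was also lost in 4 of 6 alternative fits, with edgeR adjusted p of 0.0554 with DESeq2's size factors, 0.0686 with no filter on low counts, 0.0674 with the replicate number as a block and 0.131 with only the groups compared. Between DBI_CORT and IgG_Veh the value was 0.42 (unadjusted p = 0.0139, edgeR adjusted p = 0.424). Nr1h2 (ENSMUSG00000060601.13, minus strand of chromosome 7 of GRCm39, 44199036 to 44203406) shares no exon base with another gene.

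Nr1h3, which encodes LXRα, the form enriched in hepatocytes and macrophages, stood at group means of 127 to 147 CPM with log2 fold changes between -0.04 and 0.21 and no unadjusted p at or under 0.05. Of 12 known LXR targets 9 had lower values with CORT under isotype, and Pltp, the phospholipid transfer protein, was called (from 232 ± 41.6 to 81.2 ± 32.4 CPM, log2 fold change -1.52, edgeR adjusted p = 0.000762). Srebf1, which encodes the lipogenic factor SREBP1, fell by 0.81 on the log2 scale (adjusted p = 0.0411), and Scd1, a fatty acid desaturase, had a value of -1.27 (adjusted p = 0.131) and was called by DESeq2. With the antibody under vehicle 1 of the 12 was called, Abcg5, a sterol exporter, which rose by 1.06 on the log2 scale (adjusted p = 0.00862; 0.90 with 0.0337 without DBI_Veh replicate 5).

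Nr1h4, which encodes FXR, had higher values with CORT under isotype, with means of 175 ± 33.8 and 243 ± 60.5 CPM (SD, n = 5), and the log2 fold change of 0.48 did not pass the adjustment (unadjusted p = 0.0115, edgeR adjusted p = 0.146). Nr0b2, the FXR target that encodes the repressor SHP, stood at 93.7 ± 30.5 CPM in the controls, 50.1 ± 17.4 CPM in IgG_CORT and 41.9 ± 15.03 CPM in DBI_Veh. It fell with the antibody under vehicle (log2 fold change -1.16, edgeR adjusted p = 0.0159; -1.33 with 0.0184 without DBI_Veh replicate 5), and with CORT under isotype its value was -0.90 (adjusted p = 0.0603). Among the 9 FXR targets tested, Abcb4, a phospholipid exporter of the bile canaliculus, rose with CORT under isotype by 0.59 on the log2 scale (adjusted p = 0.0475).

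Of the retinoic acid receptors, Rara rose with the antibody under vehicle. It stood at 24.2, 35.7, 34.5, 33.9 and 25.1 CPM in the IgG_Veh livers and at 53.3, 40.7, 43.3, 40.03 and 45.4 CPM in the DBI_Veh livers, which lay above all controls. In the IgG_CORT livers it stood at 31.3, 38.3, 33.6, 35.1 and 26.6 CPM and in the DBI_CORT livers at 38.8, 44.8, 44.2, 50.9 and 35.5 CPM, with overlap. The log2 fold change with the antibody was 0.54 under vehicle (SE 0.16, edgeR adjusted p = 0.0465). It lost its pass without any 1 of 8 of the 10 livers, all but IgG_Veh replicate 4 and DBI_Veh replicate 4 (0.46 to 0.59, adjusted p up to 0.158; 0.52 with 0.0897 without DBI_Veh replicate 5). The pass was also lost in 3 of 6 alternative fits, with edgeR adjusted p of 0.0948 with no filter on low counts, 0.0527 with the replicate number as a block and 0.0550 with only the groups compared. Under CORT the value was 0.38 (edgeR adjusted p = 0.313), and between DBI_CORT and IgG_Veh it was 0.48 (adjusted p = 0.321).

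Rarg, the receptor best known from skin and cartilage, had means of 20.1 ± 6.59, 12.99 ± 2.97, 28.7 ± 8.28 and 20.6 ± 4.98 CPM (SD, n = 5). Its values were lower with CORT under isotype (-0.63 on the log2 scale, edgeR adjusted p = 0.161) and higher with the antibody under CORT (0.67, adjusted p = 0.202) and under vehicle (0.51, adjusted p = 0.220; 0.35 with 0.515 without DBI_Veh replicate 5), none past the adjustment. Rarb, itself a target of retinoic acid, stood at 3.03 to 6.32 CPM, with no overlap between DBI_CORT and IgG_Veh but an adjusted p of 0.538 (edgeR, log2 fold change -1.06). Top2b on the opposite strand covers 33.9% of the exon bases of Rarb and stood at 32.03 to 43.2 CPM, above Rarb in every liver.

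With the antibody under vehicle all 7 retinoic acid targets tested had lower values and 1 was called by edgeR, Lrat, which stores retinol as esters (-1.01 on the log2 scale, adjusted p = 0.0332; -1.02 with 0.0672 without DBI_Veh replicate 5). Lrat is also a marker of stellate cells, whose 6 markers summed to a median of 127 CPM in DBI_Veh, 175 in IgG_Veh, 144 in IgG_CORT and 146 in DBI_CORT, and the part of these cells was not tested. Of 15 genes that make, store or degrade receptor ligands, 14 had lower values with the antibody under vehicle and 3 were called, Lrat, Aldh1a1 (retinal oxidation) and Cyp7b1 (oxysterol hydroxylation). Without DBI_Veh replicate 5 none of the 15 was called, and 1, Rdh10, which oxidizes retinol, passed the adjusted p alone (edgeR, -0.79 on the log2 scale, adjusted p = 0.0392). Cyp27a1, which makes 27-hydroxycholesterol, fell with CORT under isotype by 0.78 on the log2 scale (adjusted p = 0.0103).

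The shared RXR partners did not pass the adjustment in any comparison by edgeR. Rxra, the main RXR of hepatocytes, had means of 204 ± 34.3, 235 ± 59.7, 278 ± 54.2 and 259 ± 20.9 CPM (SD, n = 5), with a log2 fold change of 0.45 with the antibody under vehicle (edgeR adjusted p = 0.138; 0.53 with 0.0971 without DBI_Veh replicate 5). Rxrb, the ubiquitous form, had a value of 0.39 in the same comparison (adjusted p = 0.106; 0.30 with 0.274 without that liver). DESeq2's Wald test gave Rxrb an adjusted p of 0.0401 with the antibody under vehicle. Rxrg, at group means of 10.8 to 17.5 CPM, had values of -0.62 with CORT under isotype (adjusted p = 0.279) and 0.70 with the antibody under CORT (adjusted p = 0.279). All other log2 fold changes of Rxra and Rxrb lay between -0.31 and 0.34.

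Esrra encodes ERRα, an orphan receptor that works with PGC-1 coactivators on mitochondrial genes, and it rose with the antibody under vehicle. It stood at 49.99, 52.6, 61.2, 68.9 and 48.6 CPM in the IgG_Veh livers and at 93.9, 102, 99.7, 77.3 and 121 CPM in the DBI_Veh livers. In the IgG_CORT livers it stood at 64.4, 86.6, 92.5, 62.6 and 73.9 CPM and in the DBI_CORT livers at 87.9, 68.5, 95.5, 86.5 and 98.9 CPM. The DBI_Veh livers lay above all controls, while 2 IgG_CORT livers and 1 DBI_CORT liver lay inside the control range. With the antibody under vehicle Esrra rose by 0.81 on the log2 scale (SE 0.16, edgeR adjusted p = 0.00638), and without DBI_Veh replicate 5 by 0.72 (adjusted p = 0.0224). It kept an adjusted p of 0.05 or less with each of the 10 livers left out in turn (0.72 to 0.89). The value between DBI_CORT and IgG_Veh did not pass (0.64, edgeR adjusted p = 0.121), but it did in 2 of 6 alternative fits. Over these 6 fits by edgeR or DESeq2 its adjusted p lay between 0.0230 and 0.196. The values with CORT under isotype (0.43, edgeR adjusted p = 0.144) and for the interaction (-0.61, edgeR adjusted p = 0.278) did not pass. Without DBI_Veh replicate 5 the interaction was -0.51 with an adjusted p of 0.422. Trmt112 on the opposite strand covers 29.6% of the exon bases of Esrra (ENSMUSG00000024955.13, minus strand of chromosome 19 of GRCm39, 6888338 to 6899336), and it stood at 39.8 ± 4.38 CPM in IgG_Veh and 42.5 ± 6.10 CPM in DBI_Veh, below Esrra in every liver (Trmt112 log2 fold change 0.09, adjusted p = 0.810).

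Esrrb and Esrrg, the related receptors, were at or under 2.78 CPM in every group mean. Their log2 fold changes lay between -2.03 and -0.42 and between -0.36 and 0.31, with no unadjusted p at or under 0.05. Esr1, which encodes the estrogen receptor ERα of hepatocytes, had means of 42.1 ± 5.84, 30.5 ± 3.46, 32.4 ± 11.6 and 29.2 ± 4.56 CPM (SD, n = 5). The IgG_CORT livers lay below all IgG_Veh livers, with a log2 fold change of -0.47 that did not pass the adjustment (unadjusted p = 0.0274, edgeR adjusted p = 0.231). Between DBI_CORT and IgG_Veh it was -0.53 (adjusted p = 0.415).

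Thra, which encodes the thyroid hormone receptor TRα, varied widely between livers, from 220.4 ± 90.5 CPM (SD, n = 5) in DBI_Veh to 74.2 ± 70.7 CPM in DBI_CORT. The DBI_CORT livers stood at 33.99, 48.9, 52.7, 35.6 and 199.9 CPM, with replicate 5 far above the others. The log2 fold change with CORT under the antibody was -1.57 (SE 0.51, edgeR adjusted p = 0.198; 0.372 without DBI_Veh replicate 5), and without DBI_CORT replicate 5 it was -2.36 with an adjusted p of 0.00361. Exons of Thra overlap those of Nr1d1 on the opposite strand, which encodes the clock repressor REV-ERBα, over 21.4% of the Thra exon bases. Thra had no more counts than Nr1d1 in 18 of the 20 livers, and Nr1d1 stood at 258 ± 90.5 CPM in DBI_Veh and 87.8 ± 99.4 CPM in DBI_CORT (log2 fold change -1.56, adjusted p = 0.271). The Thra values therefore cannot be told apart from those of the clock gene.

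Thrb, the main thyroid hormone receptor of hepatocytes, had lower values with the antibody, -0.52 on the log2 scale under vehicle (unadjusted p = 0.0144, edgeR adjusted p = 0.122; -0.51 with 0.190 without DBI_Veh replicate 5) and -0.44 under CORT (unadjusted p = 0.0357, adjusted p = 0.356). Of 9 thyroid hormone targets tested none was called in any of the 6 comparisons by edgeR or DESeq2, with an unadjusted p at or under 0.05 for 0 to 2 of them, and Me1, malic enzyme, passed the adjusted p alone with the antibody, at -0.99 on the log2 scale under vehicle (adjusted p = 0.00675; 0.0187 without DBI_Veh replicate 5) and -0.90 under CORT (adjusted p = 0.0190). Dio1, which activates thyroid hormone, had a value of 0.62 with CORT under isotype (adjusted p = 0.274).

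Hnf4a stood at 398 ± 24.1, 445 ± 98.7, 430.1 ± 145 and 391 ± 67.8 CPM (SD, n = 5), with log2 fold changes between -0.30 and 0.16 and no unadjusted p at or under 0.05. Of 12 HNF4α targets none was called in any comparison by edgeR or DESeq2, with an unadjusted p at or under 0.05 for 1 to 4 of them, and 2 apolipoprotein genes passed the adjusted p alone with CORT under isotype, Apoc3 (0.80 on the log2 scale, edgeR adjusted p = 0.0239) and Apob (0.71, adjusted p = 0.0451). Nr5a2, which encodes LRH-1, a regulator of bile acid synthesis, had a value of 0.37 with CORT under isotype (unadjusted p = 0.0170, adjusted p = 0.180). Nr2f2, which encodes COUP-TFII, had a value of 0.42 in the same comparison (unadjusted p = 0.0313, adjusted p = 0.248). Nr2f6 and Nr2f1, of the COUP-TF family, had log2 fold changes between -0.08 and 0.31 and between -0.69 and 1.11. Nr2c2, which encodes the orphan receptor TR4, ranged from -0.25 to 0.29, and Nr6a1, the germ cell nuclear factor, from -0.30 to 0.13. None of these 4 had an unadjusted p at or under 0.05. Nr2f6 shares 57.1% of its exon bases with Ocel1 and Nr2c2 40.8% with Mrps25 on the opposite strand, so that their levels are shared in part with those genes.

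Nr2c1, which encodes the orphan repressor TR2, had its lowest values in the DBI_CORT livers. It stood at 11.3, 21.6, 15.2, 18.03 and 19 CPM in the IgG_Veh livers and at 8.73, 10.4, 6.83, 8.75 and 7.13 CPM in the DBI_CORT livers. In the IgG_CORT livers it stood at 13.95, 13.6, 11.8, 8.93 and 8.96 CPM and in the DBI_Veh livers at 9.72, 8.08, 14.2, 12.3 and 11.97 CPM. All DBI_CORT livers lay below all controls, with a log2 fold change of -1.03 (SE 0.23, unadjusted p = 0.000133) that missed the adjustment (edgeR adjusted p = 0.0782). Over 6 alternative fits by edgeR or DESeq2 the adjusted p lay between 0.00371 and 0.167, and 2 of them passed. With 1 liver left out the edgeR adjusted p lay between 0.0942 and 0.279. The values were -0.57 with CORT under isotype (adjusted p = 0.191) and -0.60 with the antibody under vehicle (adjusted p = 0.124; -0.63 with 0.165 without DBI_Veh replicate 5).

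Rora, which encodes the sterol-binding receptor RORα, stood at 46.1, 44.97, 38.9, 33.3 and 47.9 CPM in the IgG_Veh livers and at 30.2, 32.1, 26.6, 22.9 and 27.3 CPM in the DBI_Veh livers. In the IgG_CORT livers it stood at 69.96, 37.9, 36.3, 40.2 and 43.6 CPM and in the DBI_CORT livers at 38.8, 45.5, 42.2, 34.95 and 24.6 CPM. The DBI_Veh livers lay below all controls, and IgG_CORT replicate 1 was far above the rest of its group. The log2 fold change with the antibody under vehicle was -0.60 (SE 0.19, edgeR adjusted p = 0.0570). Without DBI_Veh replicate 5 it was -0.60 with an adjusted p of 0.1003. Over 6 alternative fits by edgeR or DESeq2 the adjusted p lay between 0.0310 and 0.0690, and 3 of them passed. It also passed without IgG_Veh replicate 4 (edgeR adjusted p = 0.0319). With CORT under the antibody the log2 fold change was 0.42 (edgeR adjusted p = 0.342), and 0.41 with 0.543 without DBI_Veh replicate 5.

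Nr3c2 encodes the mineralocorticoid receptor, which also binds corticosterone. It stood at 6.57, 6.24, 6.34, 7.39 and 5.16 CPM in the IgG_Veh livers and at 4.92, 12.01, 6.62, 11.02 and 11.2 CPM in the IgG_CORT livers. In the DBI_Veh livers it stood at 5.53, 7.28, 12.3, 8.81 and 15.3 CPM and in the DBI_CORT livers at 5.64, 5.28, 2.41, 5.56 and 6.00 CPM. All groups overlapped with each other, and the interaction had a log2 value of -1.51 (SE 0.45, unadjusted p = 0.00225, edgeR adjusted p = 0.156; -1.27 with 0.273 without DBI_Veh replicate 5). With CORT under the antibody the value was -0.98 (adjusted p = 0.166; -0.77 with 0.444 without that liver) and with the antibody under CORT it was -0.88 (adjusted p = 0.206), while with CORT under isotype it was 0.53 (unadjusted p = 0.106).

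The NR4A receptors are immediate early genes that have no known ligand and respond within minutes to stimuli. Nr4a1 ranged from 1.27 to 102 CPM over the 20 livers, with 50.3, 9.10, 17.3, 4.13 and 102 CPM in the DBI_Veh livers and 1.27, 6.49, 23.04, 9.08 and 4.26 CPM in the IgG_Veh livers. The groups overlapped, and the log2 fold change of 2.04 with the antibody under vehicle (SE 0.94, unadjusted p = 0.0437, edgeR adjusted p = 0.226) was 1.18 with an adjusted p of 0.582 without DBI_Veh replicate 5. Nr4a2 stood at most at 4.51 CPM in any liver, with log2 fold changes between -0.65 and 0.80 and no unadjusted p at or under 0.05. Of 12 other immediate early genes, none of them an NR4A receptor, 11 had higher values with the antibody under vehicle. Their median was 0.86 against -0.02 over all genes. None of the 12 was called by edgeR in any of the 6 comparisons, with an unadjusted p at or under 0.05 for 0 to 3 of them. DESeq2 called 1 with CORT under isotype and 1 for the interaction. Jun had a value of 2.00 with CORT under isotype (adjusted p = 0.0976).

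Coregulators were without a call. Of 11 coactivator genes and 7 tested corepressor genes none was called in any of the 6 comparisons by edgeR or DESeq2, with an unadjusted p at or under 0.05 for 1 to 5 coactivators and 0 to 4 corepressors, and the corepressor Gps2 passed the adjusted p alone with the antibody under vehicle (0.70 on the log2 scale, adjusted p = 0.0328; 0.0574 without DBI_Veh replicate 5). Ppargc1a, which encodes the coactivator PGC-1α, had a value of 0.59 with CORT under isotype (adjusted p = 0.228).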

How the data were processed

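Liver RNA of 20 mice, 5 in each of 4 groups, was sequenced by the authors. They aligned read pairs with HISAT2 and counted them per gene with HTSeq (per the labels), with mm10 named as the build. The study's methods name GRCm39 instead, and give HTSeq's union mode with non-unique features included. The deposited values are raw counts per gene. Strand use in counting and the time of day of collection are not given in the sources used here. The closing lines, which do not stand for genes, held a median of 61.2% of each liver's total and were left out. With non-unique features included, some pairs of these lines may also be counted on genes. Counts were filtered (filterByExpr), scaled by TMM and fitted in 1 model of 4 groups with edgeR 4.0.16 (quasi-likelihood, robust) in R 4.3.3. Calls needed a Benjamini-Hochberg adjusted p of 0.05 and an absolute log2 fold change of 1. DESeq2 1.42.0 was an alternative. The fit was tested on simulated data. Exon positions came from GENCODE M39 (GRCm39) by gene ID. Receptors and gene lists were chosen with earlier results of these data known. Each liver's value is given for the 5 receptors with an adjusted p at the limit, filled to 8 by smallest p, and from each list the 3 genes with the smallest p with CORT under isotype are named. Other list genes, and per-liver values of Thra and Nr4a1, were chosen after their values were seen. Same-group livers differed by more than sampling noise. Some genes of the lists are not reported here.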

Additional observations from a re-analysis of the deposited data

Results flagged for a closer look

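The response of Ppard to CORT differed between the isotype and the antibody arms, with an interaction of 3.57 on the log2 scale (SE 0.41, edgeR adjusted p = 4.58e-05). Ppard was lower with CORT in the isotype arm and higher with CORT in the antibody arm.

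In 8 of the 128 groups of 5 livers examined (32 receptors in 4 groups) 1 liver lay far from the other 4 (Dixon's criterion), a test that chance flags in about 1 of 20 groups, so that this number is near the share chance gives. Rxrb stood at 66.6 CPM in IgG_CORT replicate 2, against at most 54.9 CPM in the other livers of its group. Rxrg stood at 10.3 CPM in IgG_Veh replicate 1, against at least 16.7 CPM, and at 30.7 CPM in DBI_Veh replicate 5, the library that stood apart, against at most 13.4 CPM. Thra stood at 199.9 CPM in DBI_CORT replicate 5, against at most 52.7 CPM, and Nr1d1 on its opposite strand stood at 263.6 CPM in the same liver. Rora stood at 69.96 CPM in IgG_CORT replicate 1, against at most 43.6 CPM. Nr1i2 stood at 178.4 CPM in DBI_CORT replicate 3, against at most 133 CPM, and Nr3c2 stood at 2.41 CPM in the same liver, against at least 5.28 CPM. Nr4a2 stood at 3.69 CPM in IgG_Veh replicate 4, against at most 0.863 CPM. The cause of these values was not tested.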

How the results depend on the processing

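Alternatives were run for the 47 of 192 receptor and comparison pairs with an unadjusted p at or under 0.05, and none of their log2 fold changes changed its sign. Of these alternative values, 724 kept their side of the threshold, 20 came to pass it and 44 ceased to. Without a fold limit, 2 receptors passed with CORT under isotype, 2 with the antibody under CORT and 5 with the antibody under vehicle. By an unadjusted p with the fold limit, 2 passed with CORT under the antibody (2.46% of all genes), 2 with the antibody under vehicle (3.34%), 2 between DBI_CORT and IgG_Veh (1.39%) and 3 for the interaction (4.92%). With DESeq2's size factors 0 were called with CORT under the antibody (0.187% of all genes) and 2 for the interaction (Ppard and Nr1i3; 0.218%). By DESeq2's Wald test 2 were called with CORT under the antibody (Ppard and Thra; 0.697% of all genes), 1 between DBI_CORT and IgG_Veh (Nr2c1; 0.348%) and 3 for the interaction (Ppard, Nr1i3 and Nr3c2; 1.16%). With at least 10 counts in every liver 2 were called for the interaction (0.532% of 11279 genes). With only the groups compared in the fit, 1 was called between DBI_CORT and IgG_Veh (Nr2c1; 0.42% of 14759 genes). With the replicate block 0 were called with CORT under the antibody (0.224% of all genes; Ppard 1.23 on the log2 scale, edgeR adjusted p = 0.0587), and Nr1h2 under CORT and Rara under vehicle lost their adjusted p with the antibody (0.0674 and 0.0527). The labels do not say that a number marks a shared cage or day, the 30 pairs of same-numbered livers had correlations between -0.0999 and 0.0969, and only 3 of 20 livers correlated best with their own number. Leaving out 1 liver gave 1 to 2 receptors with CORT under isotype (Nr1i3 was added without IgG_Veh replicate 3 or IgG_CORT replicate 5), 0 to 2 with CORT under the antibody and 1 to 2 for the interaction. It left the count at 1 in each other comparison with a call and at 0 between DBI_CORT and IgG_Veh. The cause of these shifts was not tested. Counts of calls over all genes were 527, 211, 112, 285, 56 and 187 by DESeq2's Wald test, against 312, 96, 34, 209, 11 and 23, in the order of the comparisons in the report. Another scaling moved the median of all genes by at most 0.03 on the log2 scale in size. Low receptors, such as Esrrb and Nr4a2, which were at 0 in some livers, are limited by depth.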
